A study of Mus musculus and Homo sapiens with 8 samples.

Results

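KU812 is an established human line from chronic myelogenous leukemia (CML), a blood cancer driven by the BCR-ABL kinase, and its cells carry granule and surface proteins of basophils, eosinophils, mast cells and red cell precursors. The results below describe messenger RNA in KU812 cells after knockdown of ANP32B, across all 20296 genes counted in the 4 human libraries of a series of 8. Those libraries form 2 groups, cells with the control hairpin (shNC, n = 2) and cells with a hairpin against ANP32B (shANP32B, n = 2), and the other 4 libraries are from mouse bone marrow and were not used. Both groups consist of the same line with a hairpin construct, so neither is unmanipulated. The labels call the delivery an infection in one field and a transfection in another, and give neither the hairpin's sequence, nor the time after delivery, nor any selection. They also do not say whether the replicates came from separate cultures, so every p-value rests on a spread among libraries that could be technical. A knockdown by 1 labelled hairpin does not separate the loss of ANP32B from other effects of that hairpin.

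ANP32B belongs to a small family of acidic nuclear phosphoproteins with a leucine-rich repeat domain and an acidic tail. Its members bind histones, act as histone chaperones, and sit with SET in a complex that inhibits histone acetylation. The series' title names ANP32B as a repressor of p53, the transcription factor that answers DNA damage and other stress by inducing genes of cell cycle arrest, cell death and repair, in normal and CML stem cells.

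Expression is given in counts scaled to a common library size (CPM). Where values of single libraries are given, the first and second replicate of a group stand in that order. The libraries held between 24416691 and 28209409 counts. A floor of 3 counts is worth 0.107 to 0.122 CPM. A log2 fold change is shANP32B minus shNC, and every rise or fall given below without a unit is on this log2 scale. A gene is said to have risen or fallen where its adjusted p was under 0.05 (edgeR quasi-likelihood test, Benjamini-Hochberg over all 16529 genes tested). Markers of B cells, T and NK cells, neutrophils and monocytes were low. The table held 1 of 4 B cell markers, 2 of 5 T and NK cell markers and 3 of 6 neutrophil and monocyte markers, and their summed levels were at most 1.11, 10.5 and 3.40 CPM in any library. Basophil and mast cell markers summed to between 4430 and 5220 CPM, and all 8 were in the table. Fibroblast and endothelial markers summed to between 95.1 and 102 CPM, and epithelial markers, at higher levels, are described at the end.

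ANP32B itself stood at 250.2 and 286 CPM in control cells against 40.4 and 38.2 CPM after knockdown, from 6995 and 7020 against 1046 and 946 counts. The groups did not overlap, and the level was 6.82-fold lower after knockdown, or -2.77 ± 0.12 (SE) on the log2 scale (adjusted p = 5.18e-08, edgeR). ANP32A stood at 250.0 and 303 CPM in control cells against 288 and 288 CPM after knockdown (log2 fold change 0.059, 95% confidence interval -0.18 to 0.301). ANP32E, a chaperone that removes the histone variant H2A.Z, stood at 314 and 312 CPM in control cells against 268 and 296 CPM after knockdown (-0.15, interval -0.37 to 0.071). SET, the partner in the complex that inhibits histone acetylation, stood at 412 and 481 CPM in control cells against 402 and 422 CPM after knockdown (-0.12, interval -0.34 to 0.11). Neither paralog nor SET passed the threshold. Among 7 tested partners of the family, 1 fell, the chromatin protein gene HMGB2 (-0.45), and its call was lost without the first shANP32B library.

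**Figure D1:**
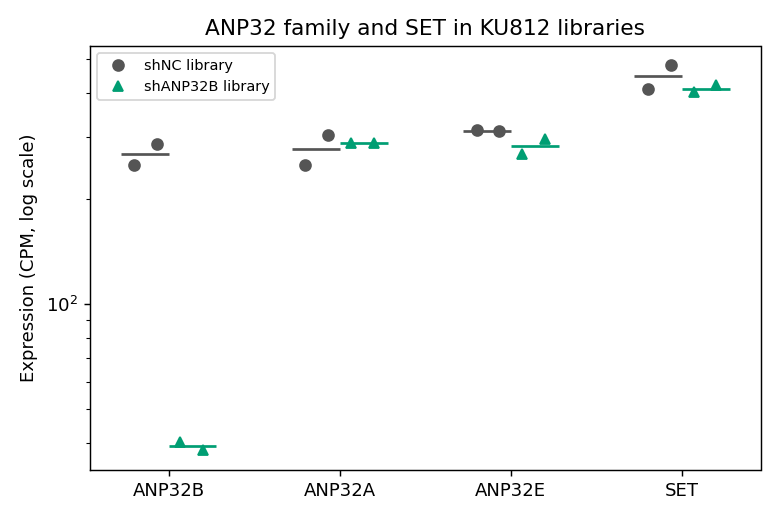
Expression of ANP32B, its paralogs ANP32A and ANP32E, and SET in each of the 4 KU812 libraries. Points are libraries (circles shNC, triangles shANP32B), the horizontal bars are group means, and the y axis is CPM on a log scale. Of these genes ANP32B alone has both shANP32B libraries (40.4 and 38.2 CPM) far below both shNC libraries.

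The knockdown came with changes in both directions. Of the 16529 genes tested, 2741 passed (16.6%), 1244 of them higher (7.53%) and 1497 lower (9.06%). These shares are the background for every group below. The groups were chosen with earlier results of these data known, so a share above the background describes a group and does not test it. With library totals as the scale the split was 1474 higher and 1182 lower. Leaving out 1 library moved that total to 3282 without the first shNC library, 4047 without the second, 1621 without the first shANP32B library and 1413 without the second. Calls that passed in the same direction in each of these 4 fits are said to have held, and their counts are given for some groups only. A group without such a count is not thereby firmer. Falls and rises differed in the level of the genes. At a mean of 100 CPM or more, 473 genes fell and 237 rose of 2448 tested, but only 29 and 11 of these by 2-fold or more. Below 10 CPM, the balance was on the other side, with 310 rises and 207 falls of 4325 genes between 1 and 10 CPM and 95 rises and 48 falls of 2580 genes under 1 CPM. Genes at higher levels thus passed more often, and no group below was compared with genes of like level.

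**Figure D2:**
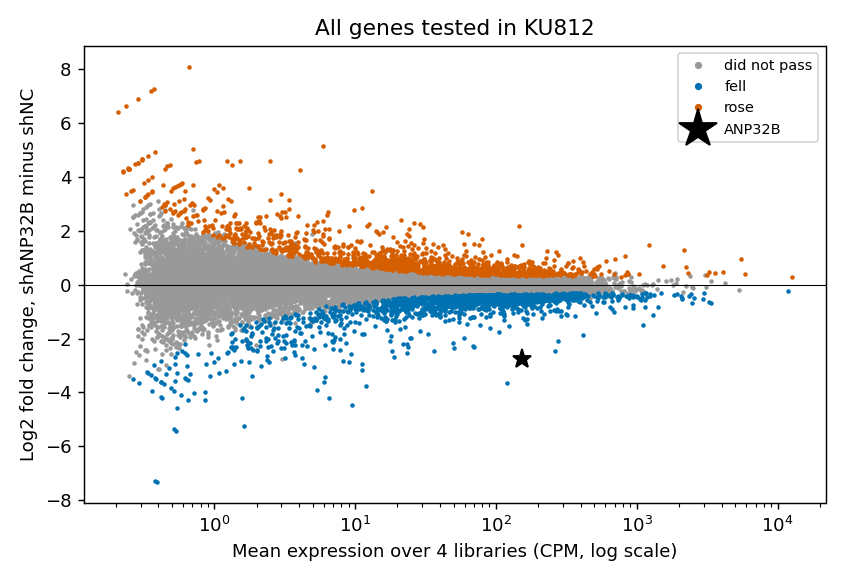
Log2 fold change (shANP32B minus shNC, y axis) against the mean level over the 4 libraries (CPM, log scale, x axis) for the 16529 genes tested. Orange points rose, blue points fell and grey points did not pass an adjusted p of 0.05. Large changes of both signs lie at low levels, and above 100 CPM more points fell (473) than rose (237).

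The p53 pathway is the one the series' title names. MDM2, the ubiquitin ligase that degrades p53 and is itself induced by it, stood at 84.9 and 96.2 CPM in control cells against 68.2 and 71.2 CPM after knockdown and fell (-0.38, adjusted p = 0.0466, edgeR). That call was lost without the second shNC library, without either shANP32B library and with library totals as the scale. MDM4, the second inhibitor of p53, had a log2 fold change of -0.28 without passing. The checkpoint kinase genes CHEK1 and CHEK2, whose products phosphorylate p53 after DNA damage, fell by 0.72 and 0.52 on the log2 scale, the latter not without either shANP32B library. CDKN2A, which encodes the MDM2 inhibitor ARF and the CDK inhibitor p16, rose from 16.96 ± 1.38 to 30.8 ± 2.13 CPM (SD, n = 2 each), and HIPK2, a kinase that phosphorylates p53, rose by 0.77. Of 23 genes in the group of p53 and its regulators, 3 rose and 3 fell, which is 26.1% against 16.6% of all genes. That share was not compared with genes of like level, and genes at higher levels passed more often. The falls numbered 5 without the first shNC library and 1 without either shANP32B library.

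The third riser of that group was AATF, a nuclear cofactor reported to bind RNA polymerase II and to restrain p53-driven death. AATF stood at 1.22 and 3.17 CPM in control cells against 37.4 and 11.2 CPM after knockdown. The libraries of each group differed widely from each other, the first shANP32B library being the highest, and the log2 fold change of 3.49 ran from 2.36 without the first shANP32B library to 4.31 without the second shNC library.

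Genes that p53 induces moved in both directions. Of 59 tested targets, 7 rose and 7 fell (2 and 4 held in every fit with a library left out), and 45 did not pass. The share of targets that passed was 23.7%, beside 16.6% of all genes. Their median log2 fold change was -0.059, beside 0.0041 over all genes tested. With library totals as the scale, 11 rose and 4 fell. Rises and falls numbered 11 and 12 without the second shNC library. With the first shANP32B library left out they were 5 and 4, and 3 and 5 with the second left out. CDKN1A, the gene of the arrest protein p21, stood at 62.3 and 80.7 CPM in control cells against 47.7 and 76.3 CPM after knockdown. The groups overlapped, at -0.21 on the log2 scale (interval -0.61 to 0.201). The arrest genes went separate ways. BTG2, an antiproliferative cofactor of mRNA decay, stood at 36.7 and 68.9 CPM in control cells against 172 and 307 CPM after knockdown and rose by 2.18. PLK2, a polo-like kinase, stood at 23.8 and 24.05 CPM in control cells against 10.1 and 8.83 CPM after knockdown and fell by 1.34. CCNG1, the cyclin G1 gene, fell by 0.54. GADD45A fell by 0.46 and PLK3 rose by 0.65, calls that were lost, for GADD45A, without the first shNC or either shANP32B library and with library totals, and for PLK3 without the second shANP32B library.

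Among death genes, 2 of 17 rose and 1 fell, and without the second shNC library 4 rose and 6 fell. TNFRSF10C, a decoy receptor for the death ligand TRAIL, stood at 1.04 and 0.854 CPM in control cells against 2.59 and 3.71 CPM after knockdown (1.73), and its call was lost without the second shANP32B library. CASP1, an inflammatory caspase, rose by 1.07, a call lost without either shANP32B library and with DESeq2. EI24, a protein of the endoplasmic reticulum, fell by 0.89. The share of death genes that passed was 17.6%, near the 16.6% of all genes. The main effectors of p53-induced death did not pass, with BAX at 0.402, BBC3 (PUMA) at -0.48, PMAIP1 (NOXA) at -0.017 and FAS at 0.52. None of the 6 tested repair targets passed, DDB2 and RRM2B standing at -0.22 and -0.33, where all 6 lay between -0.36 and 0.082. Among the other targets LIF, the cytokine leukemia inhibitory factor, rose from 423 ± 114 to 783 ± 68.3 CPM (SD, n = 2 each), and CMBL, a hydrolase, fell by 0.63. FUCA1, a lysosomal fucosidase, and ABHD4, a lipid hydrolase, rose by 0.59 and 0.52, and RAP2B, a RAS-related GTPase, fell by 0.405. The FUCA1 call was lost without the first and the ABHD4 call without the second shANP32B library, and that of RAP2B without the first shNC or either shANP32B library and with library totals.

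**Figure D3:**
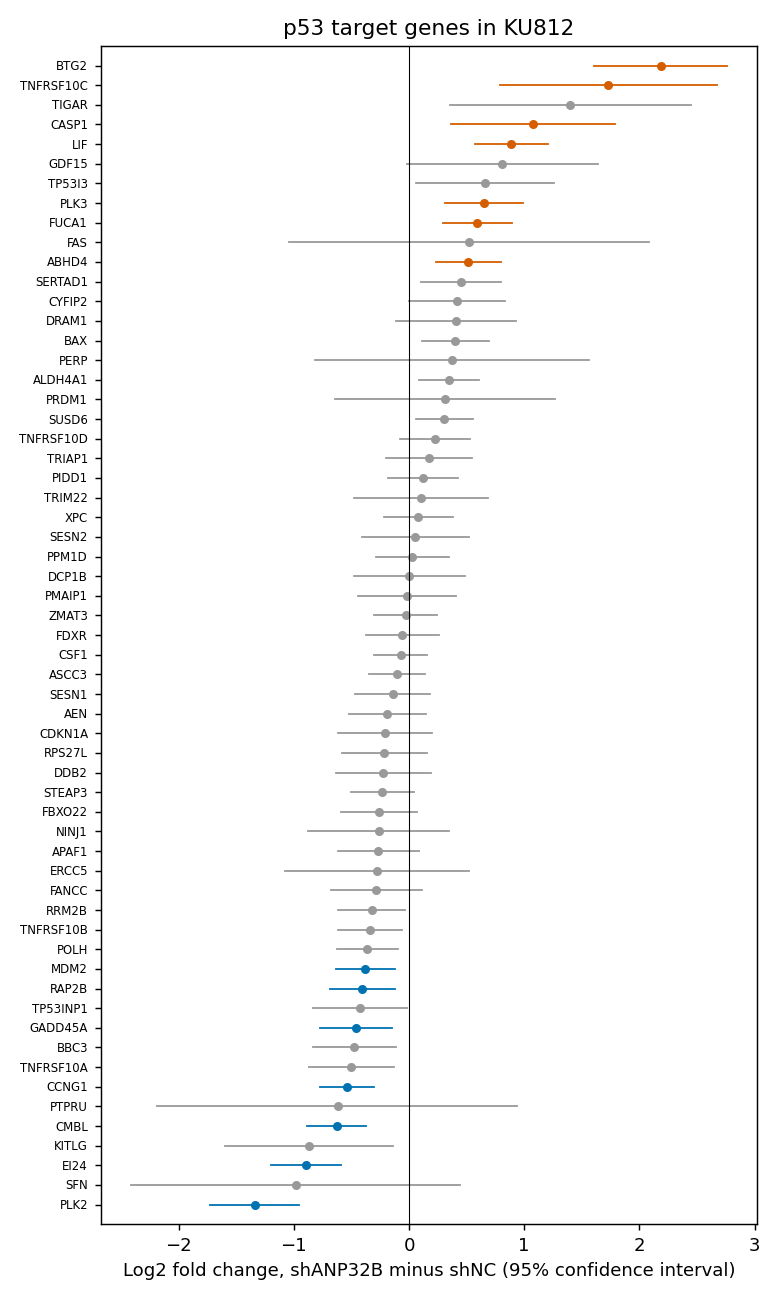
Log2 fold change (shANP32B minus shNC, x axis) with its 95% confidence interval for each tested p53 target, sorted by size. Orange targets rose, blue targets fell and grey ones did not pass an adjusted p of 0.05. BTG2 and TNFRSF10C lie at the top with 2.18 and 1.73, PLK2 at the bottom with -1.34, and CDKN1A lies at -0.21 among the genes that did not pass.

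In the BCL2 family, whose members decide on release of cytochrome c from mitochondria, 1 of 15 tested genes passed, or 3 up and 2 down without the second shNC library. The share in the main fit was 6.67%, below the 16.6% of all genes. BAK1, a pore former, stood at 35.9 and 38.4 CPM in control cells against 61.2 and 56.9 CPM after knockdown and rose by 0.67. The pro-survival genes BCL2, BCL2L1 and MCL1 had log2 fold changes of 0.401, 0.26 and -0.18.

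Granule genes divided by lineage. Eosinophil granules hold cationic toxins and mast cell granules hold tryptases and carboxypeptidase, and basophils share parts of both. All 5 tested eosinophil granule genes fell and 4 of 5 tested mast cell proteases rose, and all 9 calls held with each library left out. EPX, the eosinophil peroxidase, stood at 17.8 and 18.5 CPM in control cells against 0.887 and 0.726 CPM after knockdown (-4.48 ± 0.27). PRG2, the eosinophil major basic protein, stood at 1740.3 and 1541 CPM in control cells against 544 and 631 CPM after knockdown and fell by 1.48. CLC, the Charcot-Leyden crystal protein, stood at 29.8 and 35.2 CPM in control cells against 3.97 and 6.13 CPM after knockdown. For each of these 3 genes both knockdown libraries lay below both controls, where 58.5% of all genes tested did not overlap in either direction. RNASE2, the eosinophil-derived neurotoxin, fell by 2.94, and RNASE3, the eosinophil cationic protein, by 3.19 from counts of 53 and 61 against 12 and 0. The -3.19 of RNASE3 moved to -8.82 without the first shANP32B library, a fitted value against 0 counts that depends on the prior count, and DESeq2 gave no call. In bulk RNA, fewer cells with a granule program and less of this RNA per cell cannot be told apart. Of 4 tested surface and lineage genes of eosinophils 1 fell and 1 rose, and neither call held without the second shANP32B library. IL5RA, the receptor for the eosinophil growth factor IL-5, fell by 0.897, and IL1RL1, the receptor for IL-33, rose by 0.45. SIGLEC8, an inhibitory lectin, and PTGDR2, a receptor for prostaglandin D2, had log2 fold changes of 0.54 and -0.85 without passing.

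On the mast cell side, CPA3, the carboxypeptidase A3, stood at 530.1 and 532 CPM in control cells against 1064 and 1151 CPM after knockdown, a rise of 1.06 ± 0.093. TPSAB1 and TPSB2, the alpha/beta and beta-2 tryptases, rose by 1.21 and 1.26, TPSB2 from 136 ± 2.75 to 324 ± 0.878 CPM (SD, n = 2 each). TPSD1, the delta tryptase, rose by 1.47, while TPSG1, the membrane-anchored gamma tryptase, had a log2 fold change of 0.17 without passing. Tryptase genes are near-identical neighbours, so the split of reads among them is uncertain. CD63, a granule membrane protein exposed on activated basophils, rose by 0.93. By contrast the receptor genes for IgE, FCER1A and MS4A2, did not pass. FCER1A stood at 594 and 672 CPM in control cells against 708 and 788 CPM after knockdown (0.24) and MS4A2 at 124 and 76.3 CPM in control cells against 144 and 126 CPM after knockdown (0.43). SRGN, the proteoglycan that packs granule proteases, stood at 587 and 726 CPM in control cells against 171 and 186 CPM after knockdown and fell by 1.88. MS4A3, a membrane protein of early granulocytes and basophils, stood at 88.6 and 79.8 CPM in control cells against 17.2 and 15.8 CPM after knockdown and fell by 2.35. The proteoglycan and the proteases thus moved in opposite directions.

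**Figure D4:**
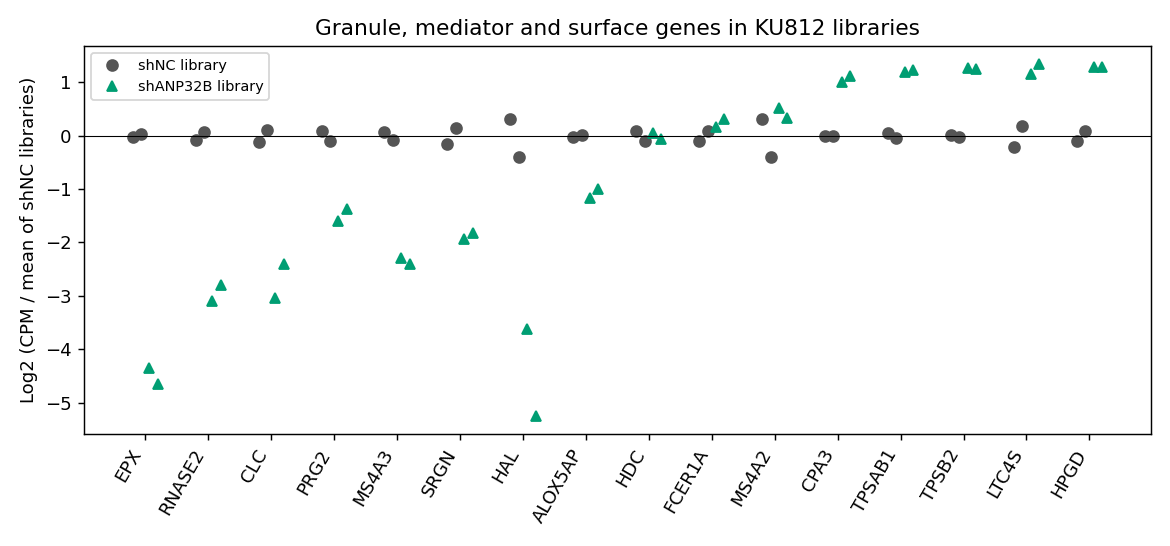
Expression of 16 granule, mediator and surface genes in each KU812 library, as log2 of the ratio of CPM to the mean of the shNC libraries (y axis). Circles are shNC and triangles shANP32B libraries. EPX, RNASE2, CLC, PRG2, MS4A3 and SRGN lie below 0 in both shANP32B libraries, the tryptase genes, CPA3, LTC4S and HPGD lie above, and HDC, FCER1A and MS4A2, which did not pass, lie within 1 of 0.

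Mediator enzymes changed in the same mixed way. HDC makes histamine from histidine and stood at 1256 and 1092 CPM in control cells against 1218 and 1132 CPM after knockdown, a log2 fold change of 0.0013 (interval -0.21 to 0.21). HAL, the histidine ammonia-lyase that breaks histidine down, stood at 15.3 and 9.32 CPM in control cells against 1.003 and 0.323 CPM after knockdown and fell by 4.197. SLC18A2, the vesicular monoamine transporter that loads histamine into granules, rose by 0.705. The enzyme gene of histidine breakdown thus fell while that of histamine synthesis did not pass. In leukotriene synthesis LTC4S, the leukotriene C4 synthase, rose from 61.6 ± 11.6 to 147 ± 13.9 CPM (SD, n = 2 each), ALOX5AP, the protein that presents arachidonic acid to 5-lipoxygenase, fell by 1.08, and LTA4H, the leukotriene A4 hydrolase, fell by 0.48 (a call lost without the first shNC or the second shANP32B library and with library totals). ALOX5, the 5-lipoxygenase itself, was not tested, with counts of 0 and 2 against 5 and 10. For prostaglandins, HPGD, the dehydrogenase that inactivates them, stood at 1187 and 1343 CPM in control cells against 3072 and 3084 CPM after knockdown and rose by 1.28, and TBXAS1, the thromboxane synthase, rose by 0.99. PTGS1 and PTGS2, the cyclooxygenases, had log2 fold changes of 0.24 and -0.398 without passing.

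Neutrophil genes were sparse. Of 6 tested genes of primary granules and promyelocytes, 4 fell, 66.7% against 16.6% of all genes. CST7, cystatin F, an inhibitor of granule cathepsins, fell by 1.10, and NKG7 fell by 2.94 from counts of 30 and 50 against 4 and 6, a call lost without the second shNC library. RNASE2 and MS4A3, described above, are the other 2. PRSS57 and LYZ had log2 fold changes of -0.195 and 0.095. Of 14 tested later neutrophil genes 3 rose and 0 fell, 21.4% against 16.6% of all genes, with a median of -0.035. S100A8 and S100A9, which form the calcium-binding protein calprotectin, were among the 3 risers. S100A8 stood at 0.9299 and 1.38 CPM in control cells against 7.0996 and 6.33 CPM after knockdown and S100A9 at 0.644 and 0.773 CPM in control cells against 4.01 and 3.03 CPM after knockdown (2.54 and 2.31), and these are low levels in all 4 libraries. The transcription factor CEBPA, which directs granulocyte development, stood at 18.4 and 16.5 CPM in control cells against 5.36 and 4.36 CPM after knockdown and fell by 1.84. SPI1, which encodes PU.1, and RUNX1 had log2 fold changes of -0.15 and 0.0084.

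Red cell genes fell in part. Of 46 tested, 20 fell and 2 rose (15 and 1 held with each library left out), 47.8% against the background of 16.6%, with a median of -0.35. Among globins the fetal HBG2, the embryonic HBE1 and the adult HBB fell by 0.52, 0.88 and 1.23, while the adult HBD rose by 1.64. HBG2 stood at 3206 and 3754 CPM in control cells against 2331 and 2524 CPM after knockdown, and HBD at 2.11 and 1.26 CPM in control cells against 4.86 and 5.73 CPM after knockdown. Globin copies resemble each other and how shared reads were treated is not stated in the sources. Genes of heme synthesis, counted together with the breakdown gene HMOX1, fell in 6 of 14 cases and rose in 1. Some of these falls were lost without the first shANP32B library. CPOX, the coproporphyrinogen oxidase, and FECH, the ferrochelatase that inserts iron, fell by 0.79 and 0.62, and the first and rate-limiting red cell enzyme gene, ALAS2, by 0.64 (not without the first shANP32B library). The 1 riser was HMOX1, the heme oxygenase that breaks heme down (0.76), a call lost without either shANP32B library.

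Red cell membrane genes included 10 falls and 0 rises among 23. SLC4A1, the anion exchanger band 3, stood at 79.9 and 114 CPM in control cells against 42.3 and 43.04 CPM after knockdown and fell by 1.18. EPB42, protein 4.2, which ties band 3 to the skeleton, fell by 0.85, ANK1, ankyrin, by 0.47, and XK, a Kell-associated membrane protein, by 0.84. EPOR, the erythropoietin receptor, fell by 0.66. Of the iron genes, TFRC, the transferrin receptor, stood at 3837 and 4186 CPM in control cells against 2444 and 2638 CPM after knockdown and fell by 0.66, and FTH1, the ferritin heavy chain, rose from 3473 ± 405 to 4758 ± 307 CPM (SD, n = 2 each). The uptake receptor and the storage protein thus moved in opposite directions.

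Among 19 tested transcription factors of red cells and megakaryocytes, 3 fell and 0 rose, 15.8% against 16.6% of all genes, and without the first shNC library 5 fell and 1 rose. KLF1, which activates the adult globin gene and red cell membrane genes, stood at 319 and 341 CPM in control cells against 223 and 189 CPM after knockdown and fell by 0.68. LDB1, the protein that bridges GATA1 complexes at enhancers, fell by 0.66, and BACH1, a heme-sensing repressor, by 0.69, the latter not without the first shANP32B library. The core factors did not pass, with GATA1 at 197 and 206 CPM in control cells against 219 and 188 CPM after knockdown (0.016), GATA2 at 0.015, TAL1 at 0.032 and NFE2 at 0.18.

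Platelet and megakaryocyte genes rose in 8 of 21 cases and fell in 1 (4 and 1 held). The rises numbered 5 without the first shANP32B library, and the falls 4 without the second shNC library. In the main fit 42.9% of the platelet and megakaryocyte genes passed, beside 16.6% of all genes. GP1BA, the von Willebrand factor receptor, stood at 26.7 and 22.9 CPM in control cells against 66.4 and 57.97 CPM after knockdown and rose by 1.32. F2R, the thrombin receptor PAR1, rose from 85.4 ± 7.89 to 184 ± 6.33 CPM (SD, n = 2 each), and PLEK, pleckstrin, by 0.96. CLEC1B, the podoplanin receptor CLEC-2, rose by 2.56 (0.9299 and 0.407 CPM against 4.36 and 3.67 CPM). PPBP, the platelet basic protein, went the other way, at 21.4 and 14.6 CPM in control cells against 6.44 and 3.67 CPM after knockdown, a fall of 1.83. ITGA2B and PF4 had log2 fold changes of 0.22 and 0.42 without passing.

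Stem cell factors and markers held 5 rises and 1 fall in 19 tested genes (2 and 1 held). There were 2 rises without the second shANP32B library, and 4 falls without the first and 3 without the second shNC library. ALDH1A1, a retinaldehyde dehydrogenase, rose by 0.66, and MECOM by 0.78, the latter not without the second shANP32B library. HLF, a stem cell factor, rose by 4.39 from counts of 2 and 0 against 19 and 26 and lost its call without the second shANP32B library, and its value was 7.49 without the first shNC library, a fitted value against 0 counts that depends on the prior count. CD34, the progenitor surface antigen, stood at 11.9 and 9.44 CPM in control cells against 3.704 and 2.299 CPM after knockdown and fell by 1.83. Of the stem cell genes 31.6% passed in the main fit, beside 16.6% of all genes. Adhesion and homing genes fell in 5 of 18 cases and rose in 1 (4 and 1 held). That was 33.3% of the homing genes, beside 16.6% of all genes. CXCR4, the receptor that retains cells in bone marrow, stood at 11.4 and 10.8 CPM in control cells against 0.926 and 0.887 CPM after knockdown (-3.61 ± 0.302), more than 10 times lower in both knockdown libraries. ITGA4 and ITGB2, integrin chains for binding to vessel wall and matrix, fell by 0.75 and 0.73, SELPLG, the selectin ligand, by 0.77, and CD44 by 0.46 (not without the first shANP32B library). ESAM, a junction protein, rose by 0.76.

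Secreted factors changed in both directions, in a list chosen with earlier results of these data known. Of 17 tested cytokine and growth factor genes, 4 rose and 6 fell, 58.8% against 16.6% of all genes, and 3 and 5 held. CSF2, which encodes GM-CSF, stood at 1.502 and 1.87 CPM in control cells against 11.3 and 10.9 CPM after knockdown (2.71). IL6, an inflammatory cytokine, stood at 6.97 and 10.9 CPM in control cells against 37.003 and 50.6 CPM after knockdown (2.29). HGF, the hepatocyte growth factor, stood at 39.2 and 40.9 CPM in control cells against 7.64 and 6.29 CPM after knockdown and fell by 2.52. VEGFA, the vascular growth factor, fell by 1.16, OSM, oncostatin M, by 0.66, and CCL5, a chemokine, by 2.06. The rising group thus held CSF2, IL6 and LIF, and the falling group HGF, VEGFA and OSM. CXCL8 fell by 1.07, a call lost with DESeq2 and library totals, and its value was -0.64 without the second shNC library, -0.55 without the first and -1.93 without the second shANP32B library. TGFB1 rose by 0.398, lost without either shANP32B library, and IL1B fell by 0.41, lost without the first shNC or either shANP32B library and with library totals.

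Receptors for such factors passed in 5 of 19 cases, 2 up and 3 down (1 and 2 held). Without the first shNC library 5 rose and 4 fell, and without the second 3 and 7. In the main fit 26.3% of these receptor genes passed, beside 16.6% of all genes. IL18R1, a chain of the IL-18 receptor, stood at 9.69 and 10.3 CPM in control cells against 29.4 and 30.4 CPM after knockdown and rose by 1.58. TNFRSF1B, a receptor for TNF, stood at 6.15 and 6.59 CPM in control cells against 1.66 and 1.98 CPM after knockdown and fell by 1.81. KIT, the stem cell factor receptor, and CSF2RB, the shared beta chain for IL-3, IL-5 and GM-CSF, had log2 fold changes of -0.32 and -0.14 without passing. IL3RA, the alpha chain for IL-3, had counts of 14 and 16 against 114 and 12. Its log2 fold change of 2.08 came from the first shANP32B library alone, and it did not pass. Within the wider TNF receptor family, 6 of 15 tested genes rose and 2 fell (3 and 1 held), with 4 falls without the second shNC library. TNFRSF18 (GITR) rose by 1.77, lost without the first shANP32B library, and TNFRSF4 (OX40) by 1.59, both receptors known from T cells. In the main fit 53.3% of the TNF receptor genes passed, beside 16.6% of all genes. TNFRSF14 stood at 1.11 and 0.814 CPM in control cells against 2.12 and 8.96 CPM after knockdown and rose by 2.51. Without the second shANP32B library its value was 1.12 and the call was lost, as it was with limma-voom.

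Downstream of BCR-ABL the kinase's own genes did not pass, with BCR at -0.23 and ABL1 at -0.15. Their counts are per gene and do not measure the fusion transcript. STAT5B, a transcription factor activated by BCR-ABL, fell by 0.55, and CRKL, an adaptor that BCR-ABL phosphorylates, by 0.56. STAT5A had a log2 fold change of -0.070. SOS1, which loads RAS with GTP, rose from 418 ± 65.2 to 668 ± 39.4 CPM (SD, n = 2 each). Of 13 tested genes that STAT5 induces, 4 rose and 2 fell (2 and 1 held). The rises numbered 2 without the first shANP32B library, and the falls 4 without the second shNC library. PIM2, a survival kinase, and CCND1, cyclin D1, rose by 0.61 and 0.597. PIM1, the related kinase, stood at 2986 and 1919 CPM in control cells against 1854 and 1661 CPM after knockdown and fell by 0.48. The PIM1 call was lost with DESeq2, with library totals and without the first shNC library, where the value was -0.13, against -0.77 without the second. CISH and SOCS3, feedback genes of STAT5, had log2 fold changes of -0.27 and -0.12.

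Feedback genes of the MAP kinase pathway passed in 7 of 19 cases, 4 up and 3 down, and none held with every library left out. Their share was 36.8%, beside 16.6% of all genes. DUSP6, a phosphatase of ERK, rose by 0.52 and SPRY4, an inhibitor of RAS signalling, by 0.74, and DUSP2 fell by 0.88. DUSP6 lost its call without the first shANP32B library, DUSP2 without the second, and SPRY4 without either, and without the second shNC library DUSP6 and DUSP2 stood at 0.34 and -0.57. The rises numbered 1 and the falls 1 without the second shANP32B library. Of 21 immediate early genes 2 rose (7 without the second shNC and 5 without the first shANP32B library) and 0 fell (4 without the second shANP32B library). The risers were BTG2 and JUN (0.802, lost without the second shNC library, at 0.504, or the first shANP32B library). Of the immediate early genes 9.52% passed in the main fit, below the 16.6% of all genes. FOS and EGR1 had log2 fold changes of -0.050 and 0.086.

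Of 14 tested genes of the MYC network 5 fell and 2 rose (3 and 1 held). MYC, the growth-promoting factor, stood at 1088 and 1017 CPM in control cells against 669.9 and 519 CPM after knockdown and fell by 0.82. MYCN, its paralog, stood at 1.82 and 1.34 CPM in control cells against 6.41 and 5.69 CPM after knockdown and rose by 1.93. MXI1 and MXD1, which compete with MYC for the partner MAX, fell by 1.16 and 0.81, and MAX had a log2 fold change of 0.24. MYCL, a further paralog, fell by 1.67 and MGA, a MAX partner, by 0.404, and MLXIPL, a glucose-responsive factor of the wider network, rose by 1.45. These 3 calls were lost without the first shANP32B library, those of MYCL and MGA without the first shNC library too, and those of MYCL and MLXIPL without the second shANP32B library. MXD3, MXD4 and MNT, which also oppose MYC, had log2 fold changes of -0.14, 0.039 and 0.203 without passing. Among nucleolar genes of ribosome biogenesis, many of which MYC is known to induce, 4 of 44 were lower and 0 higher (9.09%, beside the background of 16.6%). GNL3, nucleostemin, and NPM1, nucleophosmin, fell by 0.69 and 0.48, and those 2 calls held with each library left out. Those counts stood at 15 lower and 1 higher without the first shNC library, and 3 lower and 6 higher without the second, and 2 were lower without either shANP32B library.

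Ribosomal protein genes fell in the majority of cases. Of 31 small-subunit genes 25 fell and 0 rose, while 26 of 50 for the large subunit fell with 0 rises, with medians of -0.42 and -0.34. Both shANP32B libraries lay below both shNC libraries for 29 of 31 and 43 of 50, where 58.5% of all genes tested had groups that did not overlap in either direction. Fewer of them passed with a shANP32B library left out. The small-subunit count was 12 without the first and 14 without the second shANP32B library, and the large-subunit count 7 and 6. RPS27 fell by 0.75, RPS20 by 0.65 and RPL24 by 0.52. Together the ribosomal protein genes took 5.09% and 5.14% of counts in control cells against 4.12% and 4.09% after knockdown. Of the host genes that follow 38.9% passed, beside 16.6% of all genes. Host genes of small nucleolar RNAs, which share with ribosomal protein genes a pyrimidine-rich start of the transcript, fell in 7 of 18 cases and rose in 0, with 4 falls without the second shANP32B library (3 held), GAS5 by 0.61 and SNHG8 by 0.61 (not without the first shANP32B library).

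Few mitochondrial counterparts passed. Of 75 mitochondrial ribosomal protein genes 0 fell and 1 rose, with a median of -0.0056. Without the first shNC library 10 fell and 0 rose, and without the second 1 fell and 10 rose. Of 50 genes of the respiratory chain 0 fell and 1 rose, NDUFC2 of complex I (0.83, lost without the second shANP32B library), and the median was -0.0068. There were 2 falls without the first shNC library and 4 rises without the second.

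Genes of the mitochondrial genome, which encode respiratory chain subunits made inside the organelle, were higher after knockdown in part. Of 13 tested 7 rose and 0 fell (53.8% against 16.6%, 6 held), with a median of 0.35. ND2, of complex I, stood at 1309 and 2158 CPM in control cells against 2615 and 2811 CPM after knockdown and rose by 0.65 ± 0.16. COX2, a cytochrome c oxidase subunit and not the cyclooxygenase PTGS2, stood at 2702 and 3398 CPM in control cells against 4152 and 4147 CPM after knockdown and rose by 0.44. Both knockdown libraries lay above both controls for 11 of the 13 genes, where 58.5% of all genes tested did not overlap in either direction. COX3, also of the oxidase, had a log2 fold change of 0.12 and ND6 of 0.062, and their groups overlapped. The controls differed here, the first shNC library being the lower for all 13 genes, by a median of -0.42, and without it 7 rose with a median of 0.198. Without the second shNC library 12 rose, with a median of 0.61. These genes took 3.05% and 3.81% of counts in control cells against 4.59% and 4.58% after knockdown, and the part of that share in other results was not tested.

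Proliferation genes had lower values at nearly every step, but many did not pass. Log2 fold changes were below 0 for 43 of 44 replication genes and 50 of 50 mitosis genes. Of these lists 18 and 27 genes did not pass. Of 12 licensing genes, which prepare origins before S phase, 11 fell, from CDT1, the loader of the MCM helicase (-0.79), and ORC1, an origin recognition subunit (-0.76), to MCM5 (-0.38), and 6 fell without the first shANP32B library. CDT1 stood at 151 and 143 CPM in control cells against 85.5 and 83.9 CPM after knockdown. Of 32 fork and nucleotide genes 15 fell and 0 rose, among them POLD1, the catalytic subunit of DNA polymerase delta (-0.66), POLA2 of the primase complex (-0.58) and TK1, thymidine kinase (-0.57). PCNA, the sliding clamp, and RRM2, a ribonucleotide reductase subunit, had log2 fold changes of -0.301 and -0.15 without passing. All 12 licensing genes and 23 of the 32 others had both shANP32B libraries below both shNC libraries. Of all genes tested, 58.5% had groups that did not overlap in either direction. In mitosis 12 of 21 kinase, cyclin and checkpoint genes and 11 of 29 spindle and chromosome genes fell and 0 rose. BUB1, a kinase of the spindle checkpoint, stood at 136 and 137 CPM in control cells against 74.7 and 76.97 CPM after knockdown (-0.85), CDK1, the mitotic kinase, fell by 0.68, and ASPM, a spindle pole protein, by 0.64. MKI67, a widely used marker of dividing cells, stood at 472 and 457 CPM in control cells against 339 and 377 CPM after knockdown and fell by 0.38, a call lost without the first shANP32B library, and was named after its value was seen. The mitosis count of 23 was 5 without the first and 15 without the second shANP32B library, and the replication count of 26 was 10 and 16. MCM5 lost its call without either of them and with library totals.

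Repair genes fell by pathway in unequal shares. Of 23 genes of homologous recombination and the Fanconi anemia pathway, which repairs DNA crosslinks, 13 fell and 0 rose (median -0.57). Of 20 genes of mismatch repair, excision repair and end joining 4 fell and 1 rose (median -0.15), and the difference between these shares was not tested. BRIP1, a helicase of the Fanconi pathway, stood at 53.3 and 45.6 CPM in control cells against 25.1 and 30.3 CPM after knockdown (-0.84). FANCD2, FANCI and EXO1 fell by 0.74, 0.63 and 0.62, and these 4 calls held with each library left out. In the first group 6 fell without either shANP32B library, and in the second 0 and 2 without the first and second. Across both groups the falls numbered 6 and 8 without the first and second shANP32B library, against 17.

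Regulators of entry into S phase were mixed. Of 17 tested genes of D cyclins, G1 kinases, RB and E2F 2 rose and 4 fell, 35.3% against 16.6% of all genes. Cyclin D1 (CCND1) rose by 0.597, cyclin D3 (CCND3) fell by 0.59, and the CDK inhibitor gene CDKN2C, which encodes p18, rose from 100.3 ± 13.4 to 156 ± 8.16 CPM (SD, n = 2 each). CDKN2A, also a CDK inhibitor gene, rose by 0.86. CDKN1B, which encodes p27, had a log2 fold change of 0.018. Of 6 tested inhibitor genes 2 thus rose and 0 fell (1 without the first shNC or the second shANP32B library). The share of inhibitor genes that passed was 33.3%, beside 16.6% of all genes. CDK4 and CDK6, the partners of the D cyclins, had log2 fold changes of 0.079 and -0.043.

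Hypoxia-induced genes, targets of the HIF transcription factors, fell in most cases. Of 27 tested, 19 fell and 0 rose (13 held), with a median of -1.08. CA9, a surface carbonic anhydrase, stood at 23.1 and 21.3 CPM in control cells against 1.196 and 2.06 CPM after knockdown (-3.77). SLC6A8, the creatine transporter, stood at 298 and 147 CPM in control cells against 19.1 and 16.3 CPM after knockdown (-3.65, and -3.06 without the first shNC library). NDRG1, a stress protein, stood at 600.1 and 287 CPM in control cells against 103 and 106 CPM after knockdown (-2.08, and -1.46 without the first shNC library). The control libraries differed from each other in this very group. The first shNC library was higher than the second for 26 of the 27 genes, by a median of 0.44 on the log2 scale, against 0.18 between the shANP32B libraries. Both knockdown libraries lay below both controls for 21 of 27, where 58.5% of all genes tested did not overlap in either direction. Without the first shNC library the whole group with the HIF pathway genes had 13 falls of 33 and a median of -0.505, against 20 and -0.95.

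The HIF genes themselves did not move as one. HIF1A stood at 240.4 and 242 CPM in control cells against 225 and 253 CPM after knockdown (-0.013), EPAS1, which encodes HIF-2 alpha, rose by 0.68 (lost without the second shANP32B library), and HIF3A fell by 2.29 (-1.21 and no longer called without the first shNC library). VHL, which marks HIF proteins for decay, had a log2 fold change of 0.16. Of 9 tested carbonic anhydrases, 4 fell and 1 rose. CA9, CA8, CA2 and CA1 fell by 3.77, 2.46, 1.29 and 0.87, and these 4 calls held. CA13 rose by 0.81, a call lost without the second shNC or either shANP32B library. CA8, an inactive member of the family, stood at 70.5 and 52.7 CPM in control cells against 11.4 and 10.97 CPM after knockdown.

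Transcripts of glycolysis and glucose uptake genes were lower along most of the pathway. Of 22 glycolysis and glucose uptake genes 15 fell and 0 rose (14 held), with a median of -0.67. At the entry, SLC2A1 and SLC2A3, glucose transporters, fell by 1.07 and 0.89, and HK2, hexokinase, by 0.82. Downstream, ALDOC, PGK1, ENO2 and LDHA fell by 1.23, 1.06, 1.09 and 0.997. SLC2A3 and ENO2 did not pass with DESeq2. Without the first shNC library the values of SLC2A3, HK2 and ENO2 were -0.49, -0.49 and -0.56. PFKFB4, an enzyme that sets the pace of phosphofructokinase, stood at 106 and 53.3 CPM in control cells against 35.2 and 25.5 CPM after knockdown and fell by 1.39, or by less without the first shNC library (-0.82). GAPDH, often used as a reference gene, stood at 3988 and 4394 CPM in control cells against 2648 and 2529 CPM after knockdown and fell by 0.695. The genes that did not pass included PFKL (-0.11) and TPI1 (-0.11).

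**Figure D5:**
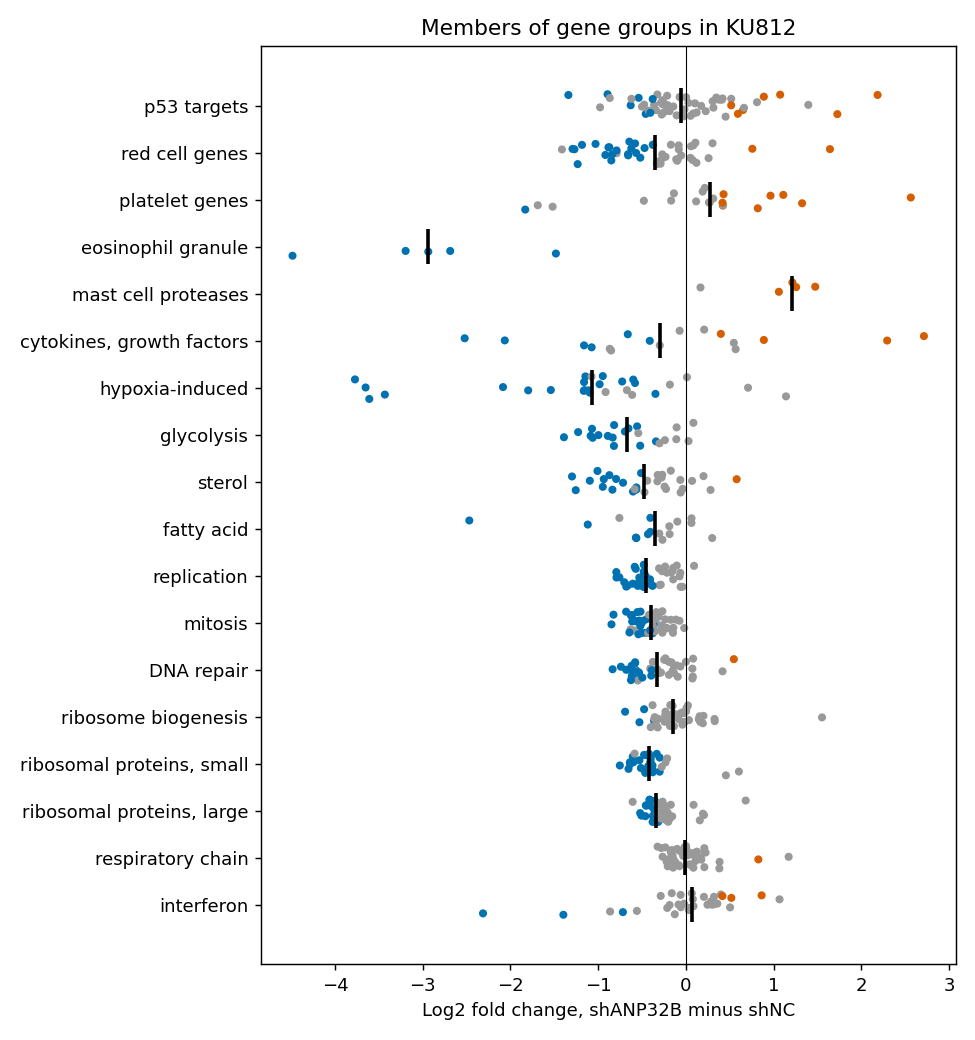
Log2 fold change (shANP32B minus shNC, x axis) of every tested member of 18 gene groups. Each point is a gene, orange where it rose, blue where it fell and grey where it did not pass an adjusted p of 0.05, and the black bar is the group's median. Hypoxia-induced, glycolysis, replication, mitosis and ribosomal protein groups have blue points and no orange ones, while the respiratory chain lies around 0.

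Lipid synthesis genes fell as well. SCD, the stearoyl-CoA desaturase that makes monounsaturated fatty acids, stood at 482 and 410.3 CPM in control cells against 83.6 and 77.7 CPM after knockdown (-2.47 ± 0.12, 5.53-fold lower). FASN, the fatty acid synthase, stood at 1706 and 1869 CPM in control cells against 895 and 751 CPM after knockdown (-1.12). FADS2 and ELOVL6, which desaturate and lengthen fatty acids, fell by 0.56 and 0.57. Of 16 tested fatty acid genes 7 fell and 0 rose (4 held), with 4 falls without the second shANP32B library. Without the first shNC library their median was -0.18 in place of -0.35, and without the second 1 rose. In the mevalonate pathway 8 of 20 genes fell (5 without the second shANP32B library) and 1 rose, with HMGCS1, CYP51A1 and FDFT1 lower by 0.94, 0.87 and 0.602. SQLE, squalene epoxidase, had a log2 fold change of -0.17. PMVK rose by 0.58, a call lost without the first shNC or either shANP32B library. Sensing and uptake genes fell in 6 of 11 cases, INSIG1 by 1.298 and SREBF1, which encodes the lipogenic factor SREBP-1, by 0.84. SREBF2, the sterol factor of the same family, had a log2 fold change of -0.33 without passing. For sterol genes too the first shNC library was the higher of the controls, for 21 of 31 sterol genes by a median of 0.16, and without it the sterol median was -0.28 in place of -0.47, with 14 falls in both fits.

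In 3 stress programs 6 of 24, 7 of 28 and 4 of 16 tested genes passed, beside 16.6% of all genes. Genes at higher levels passed more often, and these shares were not compared with genes of like level. Of 24 genes of the unfolded protein response 4 fell and 2 rose (3 and 0 held), with 1 rise without the second shNC and 0 without either shANP32B library. HSP90B1, the chaperone GRP94, fell by 0.66, CANX, calnexin, by 0.503, and P4HB by 0.45, while HSPA5, the main sensor chaperone BiP, had a log2 fold change of -0.12. Of 28 genes of amino acid stress and one-carbon metabolism 7 fell and 0 rose (2 held), with 4 and 3 falls without the first and second shANP32B library and 3 rises without the second shNC library. MTHFD1, a folate enzyme, fell by 0.57 and DDIT4, an inhibitor of mTOR that hypoxia also induces, by 1.54. ATF4, the factor that drives this response, had a log2 fold change of -0.197, and its targets ASNS and TRIB3 at -0.16 and -0.18. Among 16 NRF2 genes, which answer oxidative stress, 2 rose and 2 fell (1 and 0 held). There were 5 rises without the second shNC and 5 falls without the first shNC library, and 0 falls without the second shANP32B library, while 1 rose without either. PRDX1, a peroxiredoxin, rose by 0.61.

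Interferon-induced genes, which belong to the antiviral response, passed in 6 of 33 cases, 3 up and 3 down (18.2% against 16.6%), with a median of 0.067. Of these calls 0 rises and 1 fall held. Rises and falls numbered 0 and 2 without the first shANP32B library and 0 and 1 without the second, and the median ran from 0.028 without the second shNC library to 0.22 without the first. IFI27 fell by 2.31 from counts of 50 and 63 against 12 and 10. USP18 rose by 0.86, a call lost without the first shNC library, at 0.53, or either shANP32B library. ISG15 and IFIT3 had log2 fold changes of 0.504 and 0.32 without passing. HLA-B, a class I antigen-presenting chain, stood at 68.8 and 49.7 CPM in control cells against 136 and 118 CPM after knockdown and rose by 1.096, but genes of this region vary between genomes and share reads. CIITA, the master regulator of class II genes, fell by 2.27, and without the first shNC library stood at -1.56 and was no longer called. AIM2, a sensor of cytosolic DNA, stood at 6.69 and 3.42 CPM in control cells against 1.04 and 1.33 CPM after knockdown and fell by 2.09.

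Histone genes and chromatin enzymes close the survey of nuclear functions. Of 37 tested histone genes 9 fell and 1 rose, with a median of -0.77 (4 and 0 held). That median rests on genes with few counts. With a mean of at least 50 counts 16 remained in the fit, with 7 falls, 1 rise and a median of -0.24. HIST1H1C, a linker histone, stood at 39.02 and 40.3 CPM in control cells against 7.49 and 8.39 CPM after knockdown (-2.32), and H1FX, another linker histone, fell by 1.17. HIST1H2BD fell by 1.34, a call lost without the second shANP32B library. Reads of histone genes, many of them close copies, may be split among them. Of the histone chaperones that follow 30.0% passed, beside 16.6% of all genes. Among 20 histone chaperones other than the ANP32 family 6 fell and 0 rose, NPM1 and TSPYL1 (-0.66) in every fit with a library left out, and 2 fell without either shANP32B library. Of 27 enzymes that add or remove histone acetyl groups 3 fell and 0 rose (11.1%, below the background), or 5 without either shNC and 1 without either shANP32B library, HDAC7 by 0.57, and EP300 and CREBBP, the main coactivator acetyltransferases, had log2 fold changes of -0.24 and -0.16.

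Beyond the lists, the largest rises, taken where the libraries averaged 50 counts or more, included genes known from other tissues. CHRM1, a muscarinic acetylcholine receptor of neurons, stood at 0.429 and 0.203 CPM in control cells against 13.8 and 9.32 CPM after knockdown (5.15, and 5.79 without the first shNC library). PPP1R14C, an inhibitor of protein phosphatase 1, stood at 0.536 and 0.244 CPM in control cells against 8.26 and 7.22 CPM after knockdown (4.27, and 4.95 without that library). TG, thyroglobulin of the thyroid, stood at 0.429 and 0.5696 CPM in control cells against 4.98 and 3.91 CPM after knockdown. All had control levels under 1 CPM, so their folds rest on few counts. EYS, a photoreceptor protein, and SORCS1, a neuronal sorting receptor, rose by 3.13 and 2.83, and TMEM233 by 2.84. CHST8, a sulfotransferase, rose by 4.595 from counts of 2 and 8 against 153 and 90. ITIH4, a plasma protein of the liver, IL4I1, an amino acid oxidase, and LYNX1, a modulator of acetylcholine receptors, rose by 2.69, 2.62 and 2.54, and SNORD115 and KIAA1683 by 2.59 and 2.69. PTPRS, a receptor tyrosine phosphatase, stood at 3.004 and 1.99 CPM in control cells against 16.6 and 17.7 CPM after knockdown and rose by 2.77, while its relative PTPRF stood at 9.23 and 5.29 CPM in control cells against 1.27 and 0.928 CPM after knockdown and fell by 2.72. The largest falls not yet named included PITX1, a homeodomain factor (2.897 and 4.801 CPM against 0.733 and 0.202 CPM), NDUFA4L2, a mitochondrial protein that hypoxia induces (11.7 and 10.7 CPM against 0.463 and 1.61 CPM), and FAM69B (16.5 and 12.4 CPM against 2.701 and 1.29 CPM). Others were in PNCK, a calcium-dependent kinase (11.7 and 8.58 CPM against 0.579 and 0.766 CPM), ADGRG3, an adhesion receptor of granulocytes (10.1 and 8.097 CPM against 1.39 and 0.807 CPM), TMEM56 (20.3 and 19.8 CPM against 2.16 and 2.26 CPM), CYP11A1, the first enzyme of steroid hormone synthesis (19.6 and 12.3 CPM against 2.39 and 1.98 CPM), CERCAM (10.05 and 5.33 CPM against 1.12 and 0.847 CPM) and SLC25A26, the mitochondrial importer of S-adenosylmethionine (3.15 and 5.53 CPM against 0.617 and 0.565 CPM).

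Epithelial markers, which KU812 expressed at a measurable level, were lower too, and their part in the other results was not tested. Their summed level was 548 and 556 against 268 and 250.0 CPM in the shNC and shANP32B libraries. CDH1, E-cadherin, stood at 396 and 402 CPM in control cells against 190.2 and 171 CPM after knockdown and fell by 1.14, and EPCAM stood at 88.1 and 95.8 CPM in control cells against 38.4 and 40.6 CPM after knockdown and fell by 1.22. CDH1 is also known from red cell precursors, where it is a stage marker. KRT18 fell by 0.89 and KRT8 had a log2 fold change of -0.088. Guidance receptors are known from axon growth and cell migration. Of 28 plexin, semaphorin and netrin receptor genes 6 rose and 8 fell (3 and 4 held), with 3 rises without the first shANP32B library and 5 falls without the first shNC library, without the second shANP32B library and with library totals. NEO1, neogenin, stood at 116 and 113 CPM in control cells against 21.4 and 25.4 CPM after knockdown and fell by 2.29, PLXNA2 fell by 2.16, and PLXNA4 and NRP1 rose by 1.97 and 1.24.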

How the data were processed

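RNA of the 4 KU812 libraries was sequenced, and the authors deposited a table of raw counts per gene for each. Per the submitters' processing notes, HISAT2, TopHat, Cufflinks and DESeq were named with the genome build GRCh38, with no roles given. The sources used here do not give the counting program, annotation or use of strand. Counts from both groups were joined by gene symbol. Genes with low counts were removed by filterByExpr, leaving 16529 of 20296, the libraries were scaled by TMM, and the groups were compared with edgeR's quasi-likelihood test (edgeR 4.0.16, limma 3.58.1, R 4.3.3), called at a Benjamini-Hochberg adjusted p under 0.05 over all genes tested. Fitting was tested on simulated data. Errors are SD over 2 libraries for CPM and SE for log2 fold changes, and intervals are 95% intervals of the fit. The alternatives were DESeq2 1.42.0, limma-voom, RLE size factors, library totals, no filter, a mean of at least 50 counts, the replicate number as a block, and each library left out, where the lone library of a group is assumed to vary like the other group. Gene lists, their members and the rules were chosen with earlier results of these data known. Genes named are the ANP32 family, SET, CDKN1A and MDM2, the largest changes among called genes averaging 50 counts or more whose groups did not overlap, and per list or family those with the smallest p or largest change and every member called against the majority of its role. Genes that did not pass and are named beside them were chosen for their known roles after their values were seen. Sequences and coordinates were not used here. A few genes that these rules select are not reported here.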

Additional observations from a re-analysis of the deposited data

How the results depend on the processing

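All alternatives kept ANP32B lower and called, between -2.87 and -2.68 on the log2 scale. The number of genes that passed was between 2656 and 2795 with DESeq2, limma-voom, RLE size factors, library totals, no filter and a mean of at least 50 counts. Library totals as the scale moved the median of all genes to 0.0598 and turned the split to 1474 higher and 1182 lower, from 1244 and 1497. With 1 library left out the total ran from 1413 to 4047, the rises from 566 to 1814 and the falls from 847 to 2233. The replicate block gave 4164 genes, 1982 higher and 2182 lower. The labels do not say that the numbers pair the samples, and the deviations of same-numbered libraries from their group means had a correlation of 0.172 across 16529 genes. Values that had not passed, or had no test, and that changed sign with 1 library left out ran over these ranges. The range was -0.079 to 0.19 for ANP32A, -0.36 to 0.066 for ASNS, -0.084 to 0.24 for CDK4, -0.22 to 0.10 for CDK6, -0.60 to 0.089 for CDKN1A. The range was -0.11 to 0.12 for CDKN1B, -0.079 to 0.34 for COX3, -0.22 to 0.39 for EGR1, -0.91 to 1.42 for FOS, -0.10 to 0.11 for GATA1. The range was -0.12 to 0.15 for GATA2, -0.11 to 0.10 for HDC, -0.11 to 0.066 for HIF1A, -0.25 to 2.91 for IL3RA, -0.055 to 0.22 for LYZ. The range was -0.026 to 0.085 for MXD4, -0.14 to 0.28 for ND6, -0.31 to 0.22 for PMAIP1, -1.01 to 0.46 for PTGS2, -0.37 to 0.018 for RRM2. The range was -0.036 to 0.039 for RUNX1, -0.63 to 0.36 for SOCS3, -0.036 to 0.088 for TAL1, -0.017 to 0.36 for TPSG1, -0.14 to 0.056 for the median of mitochondrial ribosomal protein genes. The range was -0.11 to 0.037 for the median of respiratory chain genes. With library totals the sign turned for CDK6 (0.012), FOS (0.013), HIF1A (0.043), PMAIP1 (0.040), the median of mitochondrial ribosomal protein genes (0.052), the median of respiratory chain genes (0.049). With limma-voom the sign turned for FOS (0.20). With the replicate block the sign turned for FOS (0.15). With DESeq2 the sign turned for HDC (-0.0038). Without a filter the sign turned for HDC (-0.0071), RUNX1 (-0.000011). With a mean of at least 50 counts the sign turned for the median of mitochondrial ribosomal protein genes (0.0033). The cause was not tested. Genes under 1 CPM rest on few counts, and differences below the floor of 3 counts were not detectable.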

Other observations

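Other gene families are given by their counts. Of 35 proteasome subunit genes 6 rose and 3 fell, with 18 rises without the second shNC library and 2 without either shANP32B library. In the main fit 25.7% of the proteasome genes passed, beside 16.6% of all genes. PSMB5, the subunit with chymotrypsin-like activity, fell by 1.31 while PSMB10, a subunit of the immunoproteasome, rose by 0.61. Metallothionein genes, which encode metal-binding proteins, rose in 3 of 6 cases and fell in 0. MT1F and MT1E rose by 1.63 and 1.33, and MT2A, the most abundant of these 3, stood at 47.6 and 53.5 CPM in control cells against 65.2 and 91.7 CPM after knockdown and rose by 0.63. All 3 of these calls, and that of PSMB10, were lost without the second shANP32B library. MT1F also lost its call without the first shNC library (0.94), and its value was 2.91 without the second. Zinc finger genes passed in 11.5% of 454 cases, below the background of 16.6%, with 31 rises and 21 falls (7 and 8 without the first, 8 and 8 without the second shANP32B library, and 42 and 45 without the second shNC library). None of 7 tested HOX genes passed, and 1 fell without the first shNC library.

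Long noncoding and antisense RNAs passed in 8.98% of 512 cases, 30 up and 16 down, or 13 and 7 without the first and 8 and 7 without the second shANP32B library. HIF1A-AS2, antisense to the HIF1A gene, stood at 5.04 and 1.67 CPM in control cells against 0.695 and 1.29 CPM after knockdown and fell by 1.76, a call lost without the first shNC or the first shANP32B library, and reads of HIF1A and its antisense partner cannot be told apart without strand. Among S100 genes S100A10, a partner of annexin, fell by 1.29 while S100A8 and S100A9 rose.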
